A study of Mus musculus with 2 samples.

Results

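The arterial endothelial cells of tumour-draining mouse lymph nodes were chosen by the transcripts they held in single-cell RNA libraries, so the values of those transcripts describe the choice and are no finding. A cell was taken as arterial when it carried at least 2 molecules of Gja5, Bmx and Hey1 in sum, had an endothelial signature of at least 2 molecules over Cdh5, Pecam1 and Egfl7, and held no Prox1 (a lymphatic gene), no Ptprc (a leukocyte gene), at most 1 molecule over Cd79a and Cd3e (lymphocyte genes) and at most 1 over Ackr1, Selp and Chst4 (venous and high endothelial venule genes). This gave 131 cells out of 1135 blood endothelial cells and out of 8091 cells kept in all. The remaining 1004 blood endothelial cells served for comparison, among them 574 capillary-gated cells, with none of the arterial and venous gate genes and at least 2 molecules over Rgcc, Gpihbp1 and Cd300lg, and 161 cells with at least 2 molecules of the venous gate genes.

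Inguinal nodes draining a tumour were taken from 2 groups of mice, wild type (WT, 13 nodes) and ATG5LEC-KO (9 nodes), a knockout that its name places in lymphatic endothelial cells, so that the arterial cells are not its named target. Viable CD31+ CD45- Ter119- endothelial cells and CD45+ CD31- immune cells were sorted, and each genotype gave 1 library of pooled nodes. The labels used here give neither the Cre driver and the deleted exon nor the tumour, age and sex of the mice. With 1 library a genotype, the genotype, the mice and the library cannot be told apart, and no test of the genotype was possible; the values below are those of these libraries.

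Arteries carry blood under pressure into the node and branch through arterioles into its capillaries. Their endothelium is specified by VEGF and Notch signalling, with the ligand Dll4 and the transcriptional repressors Hey1 and Hey2 downstream of Notch, and by SoxF factors such as Sox17. It is coupled by the gap junction proteins connexin 40 (Gja5) and connexin 37 (Gja4) and is exposed to high shear stress, to which it responds through factors such as Klf2. In larger arteries it lies on a lamina of elastic fibres. In lymph nodes most leukocytes enter from the blood through high endothelial venules, on the venous side, which display ligands of L-selectin such as Glycam1.

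The libraries held 23649554 (WT) and 23089918 (KO) molecules, counted by their unique molecular identifiers (UMIs), over 119938 and 111135 barcodes. After filtering, 3893 and 4198 cells remained, with medians of 3530 and 3347 UMIs. The files shared 15463 barcodes, of which 14 were kept cells in both and none an arterial cell. Arterial cells were deeper than the other blood endothelial cells, with medians of 5242.5 (WT) and 5801 (KO) UMIs against 4299 and 4340.5, and their median mitochondrial share was 9.82% and 9.09% against 10% and 11.3%. A doublet caller marked 28 and 31 cells, none of them arterial. Both sexes were present: of the arterial cells with sex-linked transcripts, 41 WT and 30 KO cells were male by them (85.4% and 75%) and 7 and 10 female.

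The arterial share of the blood endothelium was measured in both libraries. The WT library had 72 among 652 blood endothelial cells, or 11% (95% exact binomial interval 8.74 to 13.7). The KO library had 59 among 483, or 12.2% (9.43 to 15.5). The intervals, which here and below cover counting error only, overlapped. A gate on a few molecules reads depth. Every cell with at least 2000 UMIs was therefore thinned to 2000, shallower cells were left out, and all gates were applied again. The arterial gate then took 45 of 696 WT (6.47%) and 26 of 478 KO (5.44%) blood endothelial cells. These shares are over a different set of blood endothelial cells than the first ones.

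The promoters of the following genes are shown because they stand for the connexins that characterise the arterial cells and for genes with and without a match to a motif of the Notch effector RBPJ. Each sequence is the 250 bases before the annotated start in RefSeq (build GRCm38.p6), written 5′ to 3′ on the gene's strand, and capitals mark the letters TGGGAA or, on the other strand, TTCCCA. Gja5 is read from chr3:97032152-97032401 (plus strand), Gja4 from chr4:127314040-127314289 (minus strand), Cxcl12 from chr6:117168285-117168534 (plus strand) and Fbln5, at 1 of its annotated starts, from chr12:101819120-101819369 (minus strand).
Gja5: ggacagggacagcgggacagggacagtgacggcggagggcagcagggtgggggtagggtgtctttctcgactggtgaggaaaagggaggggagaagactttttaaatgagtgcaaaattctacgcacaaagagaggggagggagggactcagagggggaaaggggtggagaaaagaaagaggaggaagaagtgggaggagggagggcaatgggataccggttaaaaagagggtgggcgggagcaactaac
Gja4: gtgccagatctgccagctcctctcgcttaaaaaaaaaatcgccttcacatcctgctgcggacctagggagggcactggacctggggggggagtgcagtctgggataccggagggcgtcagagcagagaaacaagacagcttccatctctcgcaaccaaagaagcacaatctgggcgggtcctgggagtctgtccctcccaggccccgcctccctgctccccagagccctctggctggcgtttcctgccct
Cxcl12: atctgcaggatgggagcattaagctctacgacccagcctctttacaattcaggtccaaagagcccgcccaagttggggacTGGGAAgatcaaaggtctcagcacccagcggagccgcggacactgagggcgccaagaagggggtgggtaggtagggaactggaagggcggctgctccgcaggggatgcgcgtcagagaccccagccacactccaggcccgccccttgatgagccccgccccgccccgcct
Fbln5: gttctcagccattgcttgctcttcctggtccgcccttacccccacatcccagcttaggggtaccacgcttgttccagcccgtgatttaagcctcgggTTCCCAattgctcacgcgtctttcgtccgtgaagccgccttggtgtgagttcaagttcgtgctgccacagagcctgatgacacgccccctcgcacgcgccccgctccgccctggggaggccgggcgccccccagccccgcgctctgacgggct

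The connexin promoters held no match in this window. Cxcl12 had 1, which began 170 bases before the start, and Fbln5 had 1, at 153 bases. Over the 18 genes of the arterial list described below that were higher in arterial cells and had a RefSeq entry, 4 of 20 promoters held the motif on either strand (20%), as did 21.6% of all 32851 promoters of the same length. The longer form GTGGGAA, which contains the first motif, was in none of the 20 and in 5.42% of all promoters, and the SOX core ACAAT was in 20%, against 27.7% of all promoters and 18.6% of those of the genes tested. For TGGGAA the share among the genes tested was 19.7%. Among the genes looked up, Hey1, Sox17, Stmn2 and Slc6a6 had no entry.

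The gate genes describe how the members were chosen and are given without a test. Gja5 (chromosome 3, 96904693 to 97077416, mm10 with GENCODE M21 annotation), which encodes connexin 40, was found in 25 of 72 WT and 19 of 59 KO members. Bmx (chromosome X, 164192842 to 164258193), a Tec-family kinase of arterial endothelium, was found in 25 and 12. Hey1 (chromosome 3, 8663359 to 8667256), a Notch target, was found in 54 and 53. Most members had therefore entered through Hey1, and 35 WT and 37 KO members held Hey1 alone of the 3 genes, while 6 in each library held all 3.

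In summed CPM (the class's UMIs of a gene per 1000000 of its UMIs outside mitochondrial genes), Gja5 stood at 413 in WT and 221 in KO members and at 9.44 and 31.6 in the other blood endothelial cells. Hey1 stood at 400 and 462 against 24.2 and 21.5, and Bmx at 208 and 56.7 against 9.82 and 12.9. Bmx was the gate gene that differed most between the libraries. At the edge of the gate, 26 WT and 19 KO members had exactly 2 UMIs of the gate genes and 70 and 44 cells had 1 and stayed outside. Sema3g stood at 326 (WT) and 230 (KO) CPM just inside and at 226 in both libraries just outside. Sox17 stood at 268 (WT) and 145 (KO) CPM just inside and at 235 and 290 just outside, so that in KO it was higher outside. A further 4 and 2 cells reached 2 UMIs but were left out for their venous genes.

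Both markers that the gate did not use, Sema3g and Sox17, were higher in the arterial cells. Sema3g (chromosome 14, 31217860 to 31230352), which encodes a secreted class 3 semaphorin of arterial endothelium, stood at 1032 CPM in WT and 681 in KO arterial cells, against 131 and 145 in the others. The arterial values lay above both of the others. The log2 fold change was 2.65 (SE 0.17, adjusted p = 1.8e-20), from edgeR's quasi-likelihood test on the 4 sums of class and library, with the library as a block and Benjamini-Hochberg adjustment over all genes fitted. The spread in this test is how far the contrast of the classes differs between 2 libraries, which also differ in genotype. With only 4 sums, edgeR estimates this spread by sharing information over all genes, and the small p-values rest on that sharing.

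Sema3g was found in 70.8% and 71.2% of the arterial cells and in 20.2% and 25% of the others. It was found in 0.27% and 0% of the B cells, which should lack it and had medians of 2630.5 and 2641 UMIs. At 2000 UMIs a cell, the shares were 58.0% and 52.8% against 14.2% and 12.9%. Sox17 (chromosome 1, 4490931 to 4497354), the SoxF transcription factor, stood at 320 and 246 CPM against 170 and 161, a smaller difference (log2 fold change 0.80, SE 0.19, edgeR adjusted p = 0.0016). Of the members, 59 of 72 and 50 of 59 held at least 1 molecule of Sema3g or Sox17, and 13 and 9 held neither. A gate of at least 2 molecules over Sema3g and Sox17 was far wider, with 197 WT and 156 KO cells: it took 68.1% and 72.9% of the arterial cells, which were 24.9% and 27.6% of it.

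Across all genes, 474 of 7160 tested genes (6.62%) differed between arterial and other blood endothelial cells at an adjusted p of at most 0.05, with 277 higher (3.87%) and 197 lower (2.75%) in arterial cells. Counts of genes below are read against these shares, and the lists were chosen with earlier results of these data known. The lists share members, so their counts are not independent. Gja4, Dll4, Jag1 and Fbln5, for instance, are in the arterial list and are counted again in the junction, Notch or matrix list. DESeq2 with the same block called 137 genes and the edgeR fit without the block 113, and both counts lay wholly within the 474. Over all tested genes the median log2 fold change was -0.00059.

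**Figure D1:**
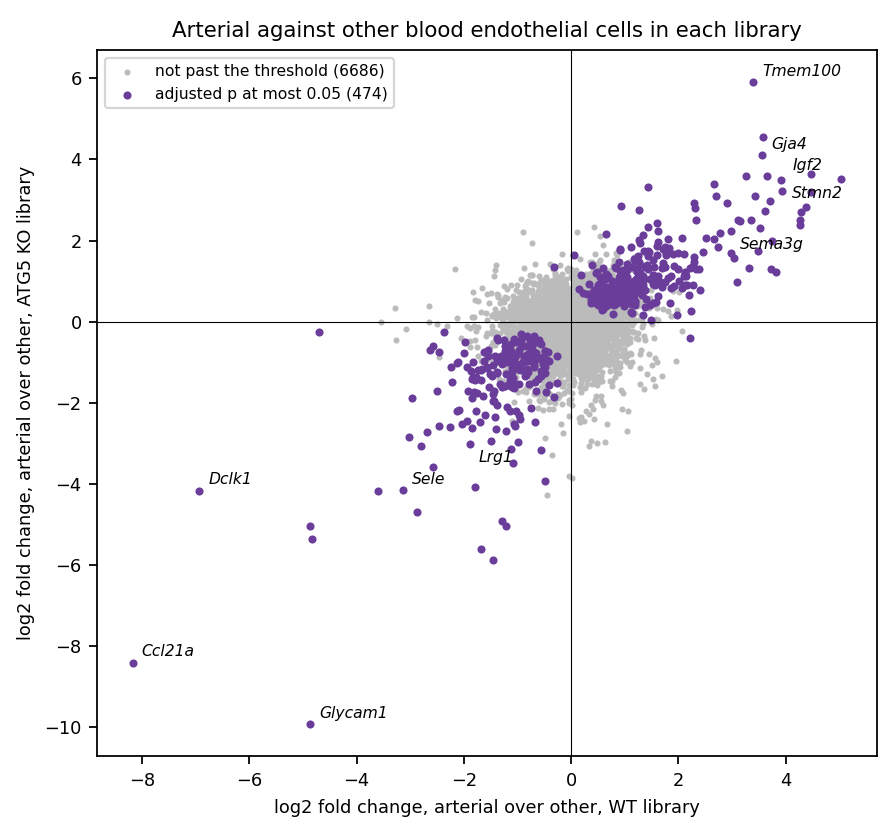
Log2 fold change of arterial over other blood endothelial cells, with the WT library on the x axis and the KO library on the y axis. Each point is a gene tested, those past the edgeR threshold are coloured, and the labelled arterial genes lie far out in the same direction in both libraries (Gja4 at 3.57 and 4.10, Sema3g at 2.98 and 2.23).

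Genes known from arterial endothelium that the gate did not use were mostly higher. Of 28 measured members of this list, 21 were called higher and none lower, and the list's median log2 fold change was 1.07. The list includes Sema3g and Sox17, and its members without a call were Ace, Acvrl1, Clu, Depp1, Nrp1, Sox18 and Sox7. Gja4 (chromosome 4, 127311421 to 127314039), which encodes connexin 37, stood at 390 CPM in WT and 224 in KO arterial cells against 32.9 and 12.9 in the others. Its log2 fold change of 3.8 (SE 0.24, edgeR adjusted p = 1e-20) was the largest of the list. It was found in 44.4% and 39.0% of arterial cells and in 7.93% and 4.01% of the others.

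Efnb2 (chromosome 8, 8617434 to 8661242), the ephrin B2 ligand that marks arteries from early development, stood at 770 and 921 CPM against 221 and 225 (log2 fold change 1.95, SE 0.16, edgeR adjusted p = 6.4e-16). It was found in 84.7% and 91.5% of arterial cells and in 39.7% and 39.9% of the others. Stmn2 (chromosome 3, 8509360 to 8561606), a microtubule-destabilising stathmin best known from neurons, stood at 307 and 119 CPM against 20.4 and 10.5. Vegfc, a growth factor for lymphatic vessels, stood at 172 and 151 CPM against 15.9 and 17.7 (log2 fold change 3.30). Unc5b, a netrin receptor, stood at 497 and 467 CPM against 162 and 99. In each of these genes both arterial values lay above both of the other values.

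Cxcl12, the chemokine that binds Cxcr4, stood at 1358 CPM in WT and 686 in KO arterial cells and at 725 and 334 in the others. Here the libraries overlapped between the classes, since the KO arterial value lay below the WT value of the other cells, but within each library the arterial cells were higher (log2 fold change 1.0, SE 0.15, edgeR adjusted p = 4.1e-07). Cxcr4 itself stood at 291 and 356 CPM against 89.1 and 132 (log2 fold change 1.6). Igfbp3 (chromosome 11, 7206086 to 7213923), an insulin-like growth factor binding protein, stood at 4442 and 5606 CPM against 1658 and 2128.

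**Figure D2:**
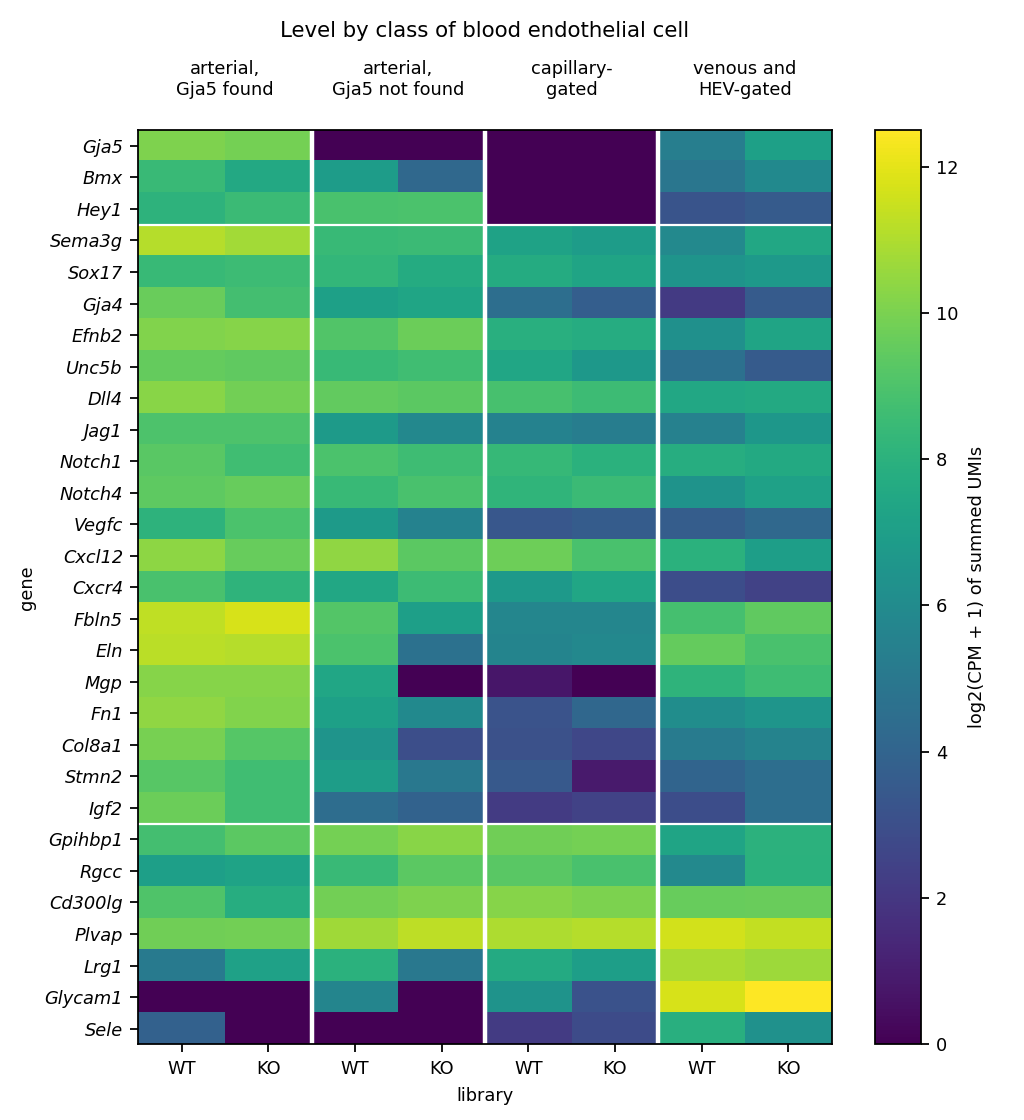
Level of marker genes, as log2(CPM + 1) of summed UMIs by colour, for arterial, capillary-gated and venous and HEV-gated cells (HEV, high endothelial venule) in the WT and KO libraries. Gja5, Bmx and Hey1 are at 0 in capillary-gated cells by the gate, whereas Sema3g (148 and 119 CPM there) and Efnb2 (232 and 215 CPM) are at intermediate levels.

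In the Notch pathway, ligands and receptors stood out and most other members did not. Of 25 measured members 6 were called higher and none lower, and the median log2 fold change was 0.10. Hey1 is itself a Notch target and was part of the gate, so that this list is not independent of how the cells were chosen. The ligand Dll4 (chromosome 2, 119325784 to 119335962) stood at 910 and 713 CPM against 394 and 351 (log2 fold change 1.15, SE 0.15, edgeR adjusted p = 2.6e-08). The ligand Jag1 stood at 263 and 162 CPM against 54.0 and 53.5 (log2 fold change 1.99), and Jag2 at 161 and 70.2 against 70.6 and 49.7 (0.93). The receptor Notch1 stood at 544 and 394 CPM against 304 and 256 (log2 fold change 0.77) and the receptor Notch4, an endothelial paralogue, at 473 and 548 against 233 and 345 (0.88).

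Nrarp, a feedback inhibitor induced by Notch, stood at 294 and 378 CPM against 188 and 251 (log2 fold change 0.65, edgeR adjusted p = 0.010). The target Hes1 stood at 299 and 178 CPM against 283 and 175, and the DNA-binding effector Rbpj at 62.4 and 40.5 against 52.9 and 50.7, and neither was called. Hey2, a close relative of Hey1, had 1 and 3 UMIs in the arterial cells, too few to be tested.

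Matrix genes of the vessel wall formed the list with the most higher members after the arterial one. Of 26 measured elastic fibre and basement membrane genes, 14 were called higher and 1 lower, with a median log2 fold change of 0.61. Fbln5 (chromosome 12, 101746565 to 101819055), which encodes fibulin 5, a protein needed to assemble elastic fibres, stood at 1316 CPM in WT and 883 in KO arterial cells against 191 and 195 (log2 fold change 2.52, SE 0.16, edgeR adjusted p = 1.1e-20). Fn1 (fibronectin) stood at 596 and 302 CPM against 79.7 and 39.7, Col8a1 (a chain of the short-chain collagen VIII) at 426 and 140 against 20.4 and 19.6, and Ltbp4, which binds latent TGF-beta and takes part in elastic fibre assembly, at 999 and 545 against 390 and 262. For these genes the summed arterial value was higher within each library, but for Fbln5 the KO members without Gja5 lay below the other cells.

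Some of this signal rested on few cells. Elastin itself (Eln) stood at 1199 and 524 CPM against 338 and 149, but 1 cell held 41% (WT) and 48.5% (KO) of its arterial UMIs. For Mgp, an inhibitor of matrix calcification, at 562 and 278 CPM against 71.4 and 85.6, these shares were 34.7% and 67.0%. Of the WT members that passed on Bmx alone and held neither Sema3g nor Sox17, 1 had 36 and another 66 UMIs of Eln. Against venous and HEV-gated cells alone, Fbln5 and Mgp were no longer past the threshold. Those cells held 452 and 687 CPM of Fbln5 and 279 and 398 CPM of Mgp. Among them were the 4 WT and 2 KO cells left out of the arterial class for their venous genes. These stood at 1177 and 8339 CPM of Fbln5. The 1 matrix gene that was lower, Col15a1, a chain of the basement membrane collagen XV, stood at 726 and 1121 CPM against 1902 and 1493 (log2 fold change -0.86).

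Among genes of the flow response, 6 of 24 were called higher and 1 lower, with a median log2 fold change of 0.19. Klf2, the transcription factor induced by laminar shear, stood at 546 and 254 CPM against 334 and 161 (log2 fold change 0.72, SE 0.17, edgeR adjusted p = 0.0027), and its relative Klf4 at 598 and 365 against 432 and 296 without a call. Nos3, the endothelial nitric oxide synthase, stood at 276 and 238 CPM against 155 and 137 (log2 fold change 0.84). Edn1, which encodes the vasoconstrictor endothelin 1, was called higher (0.97), but the libraries were unequal: it stood at 57.2 CPM in WT and 154 in KO arterial cells against 55.9 and 49.2, log2 fold changes of 0.06 and 1.65. Ptgs1, a cyclooxygenase of prostanoid synthesis, was lower, at 28.6 and 18.9 CPM against 64.2 and 61.7.

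Among 18 junction genes 4 were higher, Gja4, Gja1 (connexin 43), Cgnl1 (a junctional adaptor related to cingulin) and Jup (plakoglobin), and 1 was lower, Jam3, a junctional adhesion molecule. Gja1 stood at 616 and 859 CPM against 400 and 494, and Jam3 at 57.2 and 59.4 against 187 and 139. The guidance and VEGF receptor list counted 9 higher and 1 lower among 27, and its median was 0.34. Its higher members included Ackr3, a scavenging receptor of Cxcl12, at 250 and 181 CPM against 130 and 105, and Slit2, whose log2 fold change of 4.33 rested on few cells, 1 of which held 76.7% of the WT and 80% of the KO arterial UMIs. The lower one was Nrp2, a semaphorin and VEGF-C co-receptor.

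By the rule for naming genes (called, at least 2-fold in the same direction in each library, with at least 20 UMIs in the higher class of each library), 158 genes qualified, 66 higher and 92 lower. The largest fold change among the higher ones was that of Igf2 (chromosome 7, 142650766 to 142666816), a growth factor, at 328 CPM in WT and 105 in KO arterial cells against 9.82 and 9.08 (log2 fold change 4.47, SE 0.31, edgeR adjusted p = 8e-19). It was found in 13 WT and 7 KO members, so that most arterial cells held no molecule of it. Tmem100, a membrane protein of arterial endothelium downstream of BMP signalling, stood at 127 and 70.2 CPM against 12.1 and 0.956.

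The other genes among the 20 largest were Gja4, Stmn2, Col8a1, Pcsk5, Efna5, S100a4, Slc45a4, Vegfc, F2rl1, Fn1, Col5a2, Dkk2, Sema3g, Fbln5, Npnt, St8sia6, Mgp and Ptprj. They span log2 fold changes from 3.8 for Gja4 to 2.32 for Ptprj. Pcsk5, a proprotein convertase, stood at 146 and 67.5 CPM against 9.44 and 7.17. Dkk2, a secreted Wnt modulator, stood at 247 and 116 CPM against 21.9 and 34.9, and F2rl1, a protease-activated receptor, at 88.4 and 54.0 against 7.17 and 8.13. Against venous and HEV-gated cells alone, 8 of the 30 named genes lost their call: Efna5, F2rl1, Col5a2, Dkk2, Fbln5, Npnt, Mgp and Ptprj.

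Venous and high endothelial venule genes were lower, which the gate in part prescribes, since it removed cells with such genes. Of 17 measured members 9 were called lower and 1 higher. Glycam1 stood at 31.2 CPM in WT arterial cells, from 12 UMIs in 4 cells, against 947 in the others, and had 0 UMIs in KO arterial cells against 1312 CPM, at least 162-fold lower taking 3 UMIs as the floor of a count of 0. Ccl21a, a chemokine of high endothelial venules and stroma, had 0 UMIs in the arterial cells of either library, at least 48.1-fold (WT) and 56.8-fold (KO) lower. Aplnr, the apelin receptor, stood at 138 and 157 CPM against 432 and 563, and Lrg1, a secreted glycoprotein of venous endothelium, at 169 and 56.7 against 628 and 472. The higher member was Vcam1, an adhesion molecule for leukocytes, at 166 and 203 CPM against 53.6 and 102.

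The 10 named genes with the most negative fold changes were Ccl21a, Slc16a9, Oit1, Glycam1, Dclk1, Ccl2, C1s1, Sele, Camk4 and Slc14a1. The comparison cells include the venous-gated cells that the gate kept out of the arterial class, so low values can follow from the gate. When only capillary-gated cells were compared, 24 of the 30 named genes were high enough to be tested, and all 24 kept their call. Ccl2, C1s1 and Camk4 were among those not tested there, so for them a difference from capillary cells was not shown. Slc16a9 and Oit1 had 0 UMIs in the arterial cells of both libraries, at least 4.74-fold and 4.84-fold lower in WT. Dclk1, a doublecortin-like kinase, had 0 and 2 UMIs there and 159 and 121 CPM in the other cells. Sele, the inducible E-selectin that captures leukocytes, had 2 and 0 UMIs against 56.6 and 23.9 CPM, and Ccl2, a monocyte chemokine, had 0 and 1 UMIs against 15.5 and 73.1 CPM.

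The inflammatory list had 9 of 20 members lower and 3 higher, with a median log2 fold change of -0.58. The lower members were Sele, Ccl2, Cxcl1 (a neutrophil chemokine), Icam1 (a leukocyte adhesion molecule) and the NF-kappaB targets and regulators Birc3, Nfkb2, Nfkbia, Nfkbiz and Tnfaip3. Icam1 stood at 174 and 149 CPM against 456 and 362. The higher members were Vcam1, Icam2 and Cx3cl1, the membrane-bound fractalkine, which stood at 83.2 and 83.7 CPM against 24.9 and 23.4. Immediate early genes, the first to be transcribed after a stimulus, were also lower in part. Of 35 measured, 11 were called lower and none higher, with a median of -0.34. Atf3, 1 of the 11, had a log2 fold change of -1.18 (edgeR adjusted p = 0.00047), and DESeq2 did not call it. Egr1 stood at 840 (WT) and 483 (KO) CPM in the arterial cells, a level that makes no comparison between the classes. The part of immediate early genes in the inflammatory ones was not tested.

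Capillary genes were split. Of 19 measured, 4 were higher (Btnl9, Cd36, Esm1 and Rbp7) and 4 lower (Apln, Aqp1, Car4 and Meox1), with a median of 0.03. Against capillary-gated cells alone, Cd36 (log2 fold change 0.19) and Btnl9 (0.46) lost their call. Both also lost it with Gja5 and Bmx alone as the gate (0.15 for Cd36 and 0.19 for Btnl9). Car4, a carbonic anhydrase, differed between the libraries, with log2 fold changes of -4.69 (WT) and -0.25 (KO), and DESeq2 did not call it. Apln, the apelin peptide of tip and capillary cells, stood at 70.2 and 108 CPM against 256 and 291. Esm1, a proteoglycan of tip cells, stood at 531 and 454 CPM against 110 and 243, with 39.7% and 32.7% of its arterial UMIs in 1 cell. Rbp7, a retinol-binding protein, stood at 239 and 305 CPM against 89.1 and 91.3. Gpihbp1, the capillary anchor of lipoprotein lipase, was not called, at 749 and 1099 CPM against 665 and 759.

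**Figure D3:**
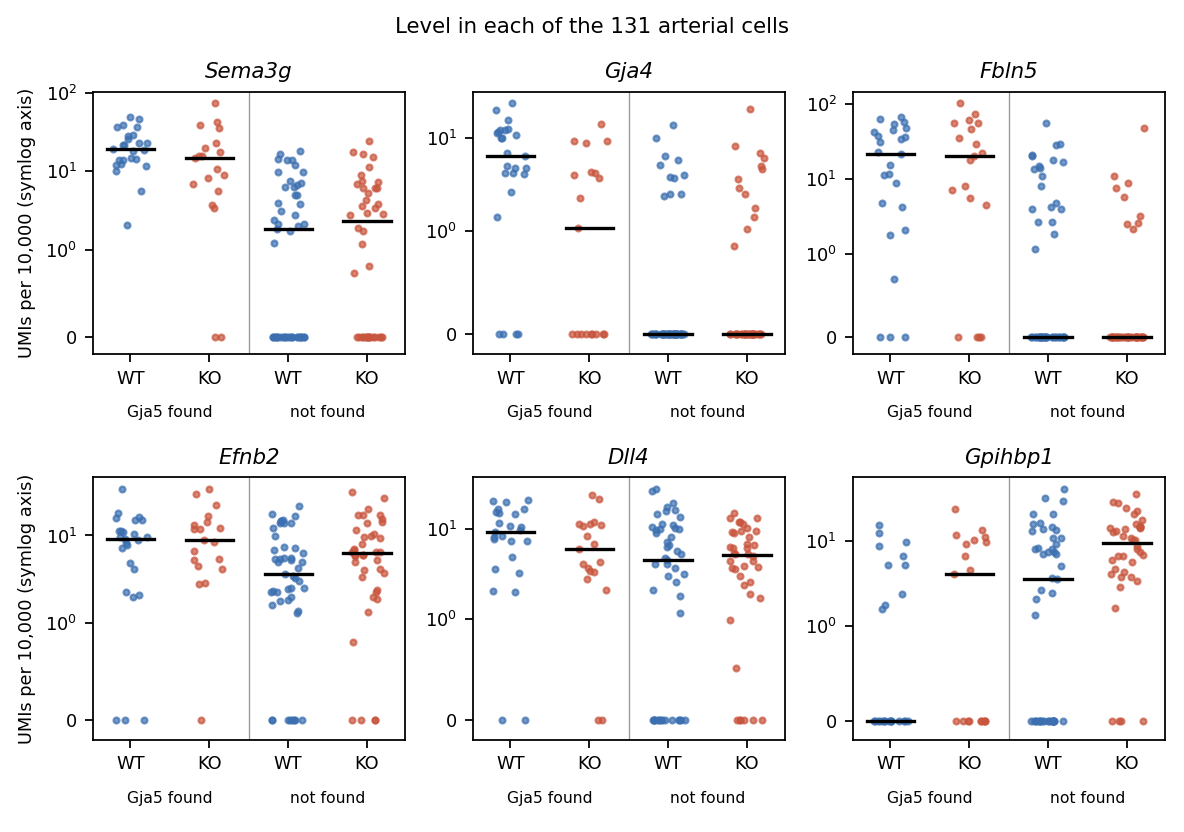
UMIs per 10000 UMIs of each of the 131 arterial cells, on an axis that is linear below 1 and logarithmic above, for members with and without Gja5 in the WT and KO libraries. Each point is a cell and the black line is the median over cells: Sema3g was found in 25 of 25 and 17 of 19 members with Gja5.

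The arterial cells were not uniform. Of the 28 measured genes of the arterial list, 21 were higher in members with Gja5 than in those without in both libraries, 1 was lower in both (Sox7) and 6 went unlike ways. Sema3g, which did not enter the gate, stood at 2180 CPM in the 25 WT and 1738 in the 19 KO members with Gja5, and at 338 and 362 in the 47 and 40 without it. The Sema3g values of members without Gja5 still lay above the 148 and 119 CPM of capillary-gated cells. Fbln5 stood at 2552 and 3370 CPM with Gja5 and 568 and 134 without, and Gja4 at 807 and 431 against 138 and 162. Igf2 stood at 835 and 408 CPM against 20.9 and 14.1. In the KO members without Gja5, Fbln5 lay below the 195 CPM of the other KO blood endothelial cells. All KO arterial UMIs of Mgp lay in members with Gja5. These splits were chosen after the values were seen and were not tested.

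The 6 were Cxcl12, Cxcr4, Nrp1, Glul, Igfbp3 and Alox12. Efnb2, among the 21, stood at 1138 and 1201 CPM with Gja5 and at 547 and 836 without it, and was found in 83.0% and 90% of the members without it. Cxcl12 stood at 1324 and 770 CPM with and 1378 and 661 without, and Glul, glutamine synthetase, at 1110.5 and 1073 against 1190 and 889. Of the 19 capillary genes measured, 15 were lower in members with Gja5 in both libraries, none was higher in both, and Rbp7, Esm1, Tcf15 and Meox2 went unlike ways. Gpihbp1 stood at 428 and 653 CPM with Gja5 and 943 and 1233 without, Rgcc, a cell cycle regulator abundant in capillary endothelium, at 131 and 152 against 359 and 643, and Meox1, a homeobox factor, at 13.8 and 35 against 271 and 158. As a group, the members without Gja5 held arterial and capillary transcripts side by side.

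A few members held transcripts that went against the label. In addition, 13 WT and 9 KO members, which can include some of these, held neither Sema3g nor Sox17. Of the 72 WT members 5, and of the 59 KO members 1, held at least 5 UMIs over Lyve1, Mmrn1 and Stab2, genes of lymphatic and sinusoidal endothelium. None of them held Sema3g, and 3 WT and 1 KO of them had passed the gate on Bmx alone. Mmrn1 and Stab2 were called higher in the arterial cells (log2 fold change 1.48 and 1.15), and 1 cell held 28.6% and 42.9% of their WT and 95% and 100% of their KO arterial UMIs. Without these members, 535 genes were called, 449 of them among the 474, and each of the 30 named genes kept its direction and call.

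Other cell types left little trace. Of 12 myeloid markers, 12 in the WT and 9 in the KO arterial cells were at 0, and T cell markers summed to 6 and 8 UMIs. B cell markers summed to 120 and 94 UMIs, of which Ebf1, which these endothelial classes also held in the other cells (1028 and 819 UMIs), gave 110 and 86. Smooth muscle and pericyte markers summed to 824 and 961 CPM in arterial and 751 and 808 in other cells, with Mcam, which endothelium also expresses, the highest member in each. Myh11, the smooth muscle myosin, had 0 UMIs in both, and Acta2 had 8 and 16, of which 50% and 93.8% came from 1 cell. None of the 20 cell cycle, 23 autophagy, 19 MHC class I and 4 MHC class II genes measured was called between arterial and other cells.

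**Figure D4:**
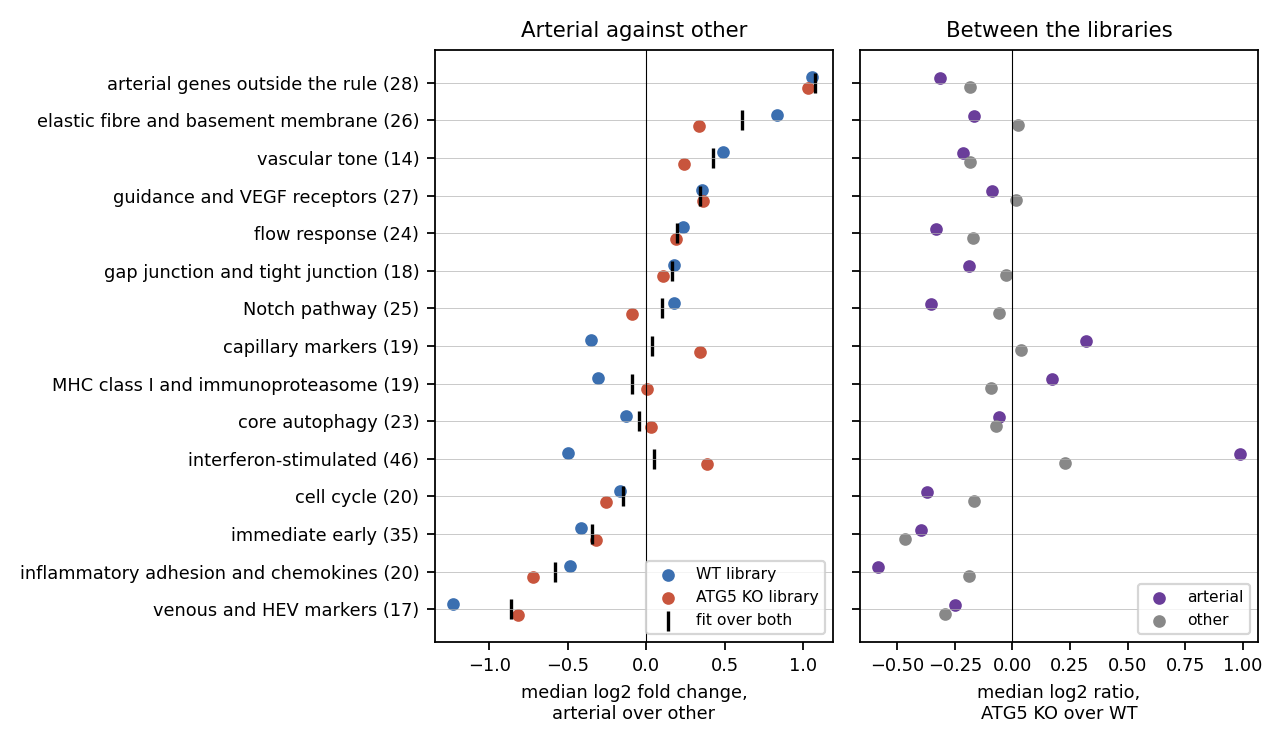
Median log2 fold change over each gene list for arterial over other cells (left, in the WT library, the KO library and the fit) and median log2 ratio of the KO over the WT library in arterial and in other cells (right). The number of genes beside each list is that measured in the left comparison: the arterial list lies at 1.06 and 1.03 in the WT and KO libraries, and the interferon-stimulated list at 0.99 in arterial and 0.23 in other cells on the right.

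Between the libraries, Atg5 (chromosome 10, 44268358 to 44364291), the gene that the knockout targets in lymphatic endothelium, stood at 46.8 CPM in WT (18 UMIs, 95% exact Poisson interval 27.7 to 74.0) and 40.5 in KO arterial cells (15 UMIs, 22.7 to 66.8), a ratio of 0.865 (0.406 to 1.82). A 3′ count does not check a deletion elsewhere in the gene, and the deleted part is not given. Of the 21 measured genes of core autophagy, Atg16l1 was 2.08-fold higher and Atg12, at a ratio of 0.469, was lower past 2-fold, from 7 and 14 UMIs (WT and KO) for the former and 31 and 14 for the latter.

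Of 6268 genes with at least 20 UMIs over both libraries in arterial cells, 264 (4.21%) were at least 2-fold higher and 494 (7.88%) at least 2-fold lower in the KO library. These counts have no replicate check and include counting error. Of the arterial list, 2 of 29 were past 2-fold higher and 6 lower. Stmn2 stood at a ratio of 0.387 (95% counting interval 0.267 to 0.552), Sema3g at 0.659 (0.561 to 0.774), Gja4 at 0.575 (0.434 to 0.756) and Efnb2 at 1.20 (1.02 to 1.40). Of the matrix list, 7 of 25 were past 2-fold lower and none higher, among them Col8a1 (0.329), Fbn1 (0.378), Eln (0.437) and Lox (0.291). The ratios of Eln and Col8a1 rested in part on 1 WT cell, which held 189 UMIs of Eln and 48 of the 164 WT arterial UMIs of Col8a1. Members with Gja5 made up 34.7% (WT) and 32.2% (KO), but members with Bmx made up 34.7% and 20.3%. Those with Hey1 alone of the gate genes made up 48.6% and 62.7%. The part of this makeup in the ratios was not tested. Within the members with Gja5, Fbln5 was higher in the KO library while Col8a1, at 986 and 583 CPM, was lower.

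Of the 10 genes named for the largest ratios, 6 belonged to the interferon-stimulated list. Of 46 measured members of that list, 23 were past 2-fold higher (4.21% of all genes were) and none lower, with a median log2 ratio of 0.99 in arterial and 0.23 in other blood endothelial cells. Gbp2, an interferon-induced guanylate-binding GTPase, had 25 UMIs in WT and 359 in KO arterial cells, a ratio of 14.9 (9.94 to 23.4), against 2.61 in the other cells. Gbp5 stood at a ratio of 8.94 (5.47 to 15.5), Igtp, an immunity-related GTPase, at 7.48 (3.84 to 16.3), and Irf8, an interferon regulatory factor, at 5.93 (2.63 to 15.7). All 4 measured MHC class II genes were past 2-fold higher, led by Cd74, the invariant chain, with 10 and 175 UMIs.

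Of the 6609 UMIs of the interferon list in KO arterial cells, the 7 cells with the most held 67.1%, and of the 3230 in WT arterial cells 28%. Cxcl9, an interferon-gamma-induced chemokine that draws T cells, had 46 UMIs in 6 WT and 1537 in 17 KO arterial cells, and 7 KO cells held 98.1% of the latter. For Gbp2 the 7 highest KO cells held 91.9%, whereas the 40 KO UMIs of Irf8 lay in 17 cells. The share of a cell's UMIs that came from the interferon list had a median of 0.703% in WT and 0.779% in KO arterial cells, and reached 2.61% and 8.09% in the highest cell. Cells above 2% numbered 4 of 72 and 9 of 59 among arterial cells and 41 of 580 and 58 of 424 among the others. Of the 46 list members, 39 stood above a ratio of 1 and 7 below it, among the latter Rsad2 (190 and 165 CPM), an antiviral enzyme, and Ifit3 (88.4 and 86.4 CPM), an interferon-induced protein.

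The cells rich in Cxcl9 lay mostly outside the members with Gja5. Of the KO Cxcl9 UMIs, 15 were in members with Gja5 and 1522 in those without. The median log2 ratio of the interferon list was 0.51 in members with Gja5 (28 genes measured), 0.95 in those without (45), 1.52 in male cells (41) and 0.11 in female cells (5), and 0.59 when each cell counted equally. The part of sex in the ratio was not tested, and there were 7 WT and 10 KO arterial cells called female.

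**Figure D5:**
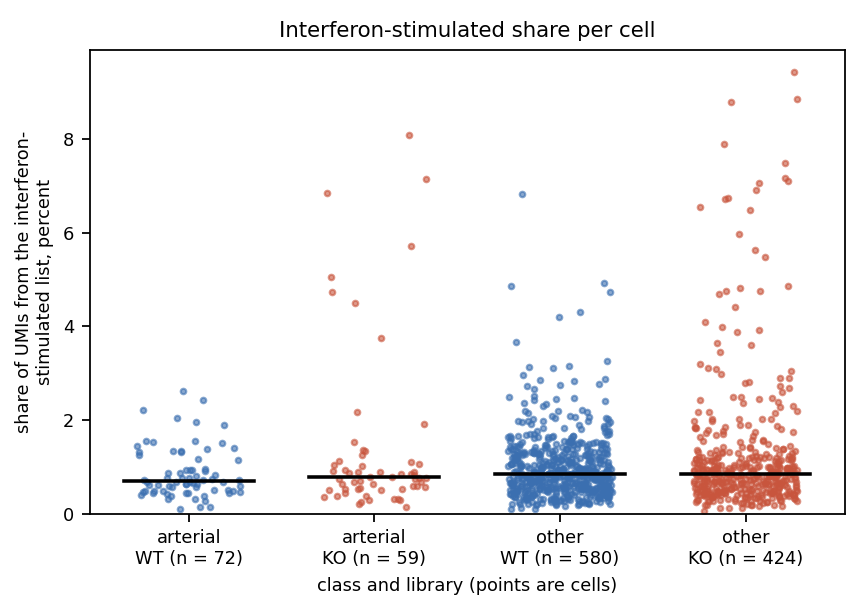
Share of each cell's UMIs, in percent, that came from the interferon-stimulated list in arterial and other blood endothelial cells of the WT and KO libraries, each point a cell. Medians lie between 0.703% and 0.854%, and 9 of 59 KO arterial cells lie above 2%, the highest at 8.09%.

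The other genes named by size (the 10 largest ratios each way among genes with at least 40 UMIs over both libraries and no cell with over 25% of the higher library's UMIs) were Wars, Ccn2, Pfkfb3, Ifi213, Iigp1 and Tgtp2 on the higher side. Wars, a tryptophanyl-tRNA synthetase induced by interferon-gamma, stood at a ratio of 5.19 (1.79 in other cells), Pfkfb3, an enzyme that drives glycolysis, at 4.76 (1.36), and Ccn2, a matricellular target of YAP, at 5.04 (1.25). On the lower side stood Cpe at 0.092, Fxyd6 at 0.160, Cxcl1 at 0.170, Tnc at 0.210, Car7 at 0.224, Tnfaip3 and Timp2 at 0.228, Arrdc4 at 0.253, Bace2 at 0.260 and Crip1 at 0.267. Tnc (tenascin C), Fxyd6 and Crip1 had like ratios in the other blood endothelial cells (0.172, 0.103 and 0.207), whereas Car7, a carbonic anhydrase, and Bace2, a protease, stood at 0.844 and 0.935 there. The Car7 ratio there came from 18 WT and 12 KO UMIs. Its counting interval (0.371 to 1.85) overlapped that in arterial cells (0.105 to 0.435). Whether the ratio differs between arterial and other cells was not tested.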

How the data were processed

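Per the file headers, the authors ran version 1.11 of the BD Rhapsody WTA Analysis Pipeline on an mm10 reference, and the submitters' processing notes name mm10. What was deposited are raw counts of every barcode, called a cell or not, for each gene; the counts of molecules (UMIs) corrected for sequencing errors by the authors' pipeline were used. Rhapsody captures 3′ ends, so a count is not divided by transcript length. How overlapping and antisense genes were counted is not given in the sources used here.

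Cells with at least 1200 UMIs, at least 200 genes and at most 25% mitochondrial UMIs were kept (scanpy 1.11.5, which also ran Scrublet with an expected doublet share of 6%; marked cells stayed in and were left out in an alternative). The members and gene lists were chosen with earlier results of these data known. UMIs were summed per class and library and tested with edgeR 4.0.16 (quasi-likelihood, TMM factors, library as block, which pairs both classes of 1 library) over genes with a mean CPM of at least 20. Standard errors were derived from the F statistic. Fold changes of a single library used a prior count of 0.5. Genes of the gate received no call. The edgeR step was run on simulated sums with known fold changes, in which the libraries differed only in depth. This checks the recovered fold changes and cannot give the number of false calls between libraries as unlike as these. Ratios between the libraries are of summed CPM with exact 95% intervals. Named genes were the 20 highest and 10 lowest fold changes past the threshold and at least 2-fold in each library, the 10 highest and 10 lowest ratios between the libraries, and list members. Alternatives covered normalization, filters, DESeq2 1.42.0, the block, depth, membership, comparison cells, sex and doublets. Depth was 23649554 (WT) and 23089918 (KO) UMIs, and intervals cover counting error only.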

Additional observations from a re-analysis of the deposited data

Results flagged for a closer look

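For 2 gene lists the libraries went opposite ways when arterial cells were set against the other blood endothelial cells of the same library. The median log2 fold change of the capillary markers was -0.35 (WT library) and 0.34 (KO library). That of the interferon-stimulated genes was -0.50 (WT library) and 0.39 (KO library). In neither list was the difference between the libraries tested, since each genotype has 1 library. Leaving out either library therefore gives the median the sign of the other. Within the arterial cells Rgcc stood at 273 and 529 CPM, and 7 of the 59 KO cells held 67.1% of the interferon-stimulated UMIs.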

How the results depend on the processing

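The count of 474 genes between arterial and other blood endothelial cells became 137 with DESeq2, 113 with no replicate block, and 252 at a mitochondrial share of at most 10%, of which 227 were among the 474; the other alternatives kept it within 1.5 times. The cause was not tested for DESeq2 and the mitochondrial limit, which leaves fewer cells. With membership by Sema3g and Sox17, Ackr3 reversed to -0.0672, Apln to 0.0135, Bgn to -1.55, Car4 to 0.42, Cytl1 to -1.51, Edn1 to -0.39, Eln to -0.11, Fbln2 to -0.17, Klf2 to -0.0632 and Zfp36l1 to 0.0141 on the log2 scale. Against venous and HEV-gated cells, an alternative added after seeing the data, Bgn was -0.85, Edn1 -0.50 and Fbln2 -0.45. With Gja5 and Bmx alone as the gate, Angpt2 was -0.91 and the log2 ratio of Gbp4 between the libraries -0.12. The arterial share followed the gate. In WT it was 7.06% at 3 UMIs, 5.52% with Gja5 and Bmx, 30.2% with Sema3g and Sox17 and 6.47% after thinning, and in KO 8.28%, 3.73%, 32.3% and 5.44%, with 17.7% at the lower mitochondrial limit. The 758 genes past 2-fold between the libraries, 12.1% of those measured, became 280 (7.05%) at a minimum of 40 UMIs, 282 (33.2%) in female cells and, added later, 398 (15.2%) in members with Gja5, where fewer genes were measured. Among values of single genes with a test, 1344 kept direction and side of the threshold, 283 kept the direction without the call and 14 reversed. From 1 library alone, with no test, 188 stayed within 1 SD of the 2 libraries and 36 did not. Of the 30 named genes, 22 kept their call against venous and HEV-gated cells, 23 with DESeq2 and 27 without the block. Genes under about 20 CPM were not tested.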
